A study of Homo sapiens with 6 samples.

Results

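The zinc finger genes of human chromosome 19 were followed in TC-71, a cell line derived from an Ewing sarcoma and wild type per the labels, after 16 h with the PI3K and mTOR inhibitor BEZ235 dissolved in dimethyl sulfoxide (DMSO), against 16 h with DMSO alone. A row of the deposited table was a member if its symbol was ZNF followed by a number, its hg38 coordinates lay on chromosome 19 and its normalized count reached 10 in 3 or more of the 6 libraries. Of 253 zinc finger rows on the chromosome, 241 met this rule, and 23923 of the 48114 rows of the whole table passed the same filter on values. Each group held 3 libraries of RNA from biological replicates, and all 6 came from the same line.

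Most genes named ZNF encode proteins with a row of C2H2 zinc fingers, loops in which 2 cysteines and 2 histidines hold a zinc ion and the residues between them contact DNA. Many of them begin with a KRAB box, which binds the corepressor TRIM28, and TRIM28 brings the histone methyltransferase SETDB1 and the HP1 proteins to the bound site. The genes arose by repeated local duplication, so relatives lie side by side in clusters, and several members are known as repressors of retrotransposons.

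The filter removed 12 zinc finger rows, 8 of them in the cluster next to the centromere on the short arm, and these were ZNF556, ZNF826P, ZNF257, ZNF676, ZNF729, ZNF492, ZNF99, ZNF723, ZNF728, ZNF702P, ZNF677 and ZNF835. No member passed through 1 group alone, and 235 members reached 10 in all 6 libraries. Just inside the filter lay ZNF541, with 4.63, 5.92 and 11.8 normalized counts in BEZ235 libraries against 17.3, 0 and 10.0 in DMSO libraries, and ZNF98, with 10.4, 8.88 and 10.9 with BEZ235 against 10.8, 7.23 and 3.34 with DMSO. Just outside lay ZNF702P, with 20.9, 25.7 and 2.72 in BEZ235 libraries against 0, 5.16 and 9.18 in DMSO libraries, and ZNF728, with 4.63, 7.90 and 2.72 with BEZ235 against 7.56, 8.26 and 1.67 with DMSO. A further symbol is carried by 4 member rows (ZNF540 with ZNF571-AS1, ZNF761 with TPM3P9, ZNF547 with TRAPPC2B and ZNF587 with ZNF587B), and their values belong to the joint row.

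The libraries held 186274074 to 221626548 reads with BEZ235 and 184790722 to 233767211 with DMSO. Pairs of libraries correlated across rows with Pearson's r of 0.982 to 0.987 within a group and 0.927 to 0.939 between groups. All 9 Ewing sarcoma markers examined, among them NKX2-2, NR0B1 and CD99, were above 0 in every library. Of these markers 4 rose, NKX2-2 by 1.26 on the log2 scale, and 4 fell, NR0B1 by 1.11, and their summed level, most of it CD99, was 337208 to 349945 with BEZ235 and 423259 to 466552 with DMSO. Summed levels of other cell types' markers were 1685 to 1830 with BEZ235 and 2561 to 3616 with DMSO for blood (CD3E at 0), 1099 to 1325 with BEZ235 and 1698 to 1743 with DMSO for epithelium (KRT5 at 0), and 33548 to 35942 with BEZ235 and 30150 to 31228 with DMSO for fibroblasts. Most of the fibroblast sum was COL3A1, which rose by 0.49 on the log2 scale, while COL1A1 fell by 0.73 and LUM by 2.65. For endothelium they were 211 to 295 with BEZ235 and 99.2 to 130 with DMSO, most of it ESAM. Mitochondrially encoded rows took 0.507 to 0.706% of normalized counts with BEZ235 and 2.82 to 3.55% with DMSO. The part of these differences in the results was not tested.

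More members were higher than lower in BEZ235-treated cells. By limma with Benjamini-Hochberg adjustment over all 23923 rows, 163 of 241 members passed an adjusted p of 0.05 (67.6%), against 66.3% of all rows tested, so the share that changed was near the background. The direction was uneven: 124 members rose (51.5%, against 33.1% of all rows) and 39 fell (16.2%, against 33.2% of all rows). The median log2 fold change was 0.32 over the members, with quartiles of -0.11 and 0.66, and -0.001 over all rows. Changes of at least 2-fold were few, with 29 members higher (12%, background 12.7%) and 9 lower (3.73%, background 13.6%). The groups did not overlap in 71.0% of members and 70.9% of all rows. In bulk RNA, fewer cells that express a gene and less of its RNA per cell cannot be told apart.

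Rises also outnumbered falls in zinc finger rows of the other chromosomes, and were near falls in number in the rest of chromosome 19. Of 249 zinc finger rows elsewhere, 143 rose (57.4%) and 56 fell (22.5%), and the median log2 fold change was 0.37. Of 1315 other rows of chromosome 19, 451 rose (34.3%) and 418 fell (31.8%), with a median of 0.009. Of all normalized counts, the members together took 0.262 to 0.264% with BEZ235 and 0.216 to 0.234% with DMSO. These are counts and medians, and no test compared the sets with each other. With every library scaled to the same total count, which moved the median of all rows by -0.096, 103 members rose and 46 fell, against 6724 and 8678 of all 23923 rows.

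**Figure D1:**
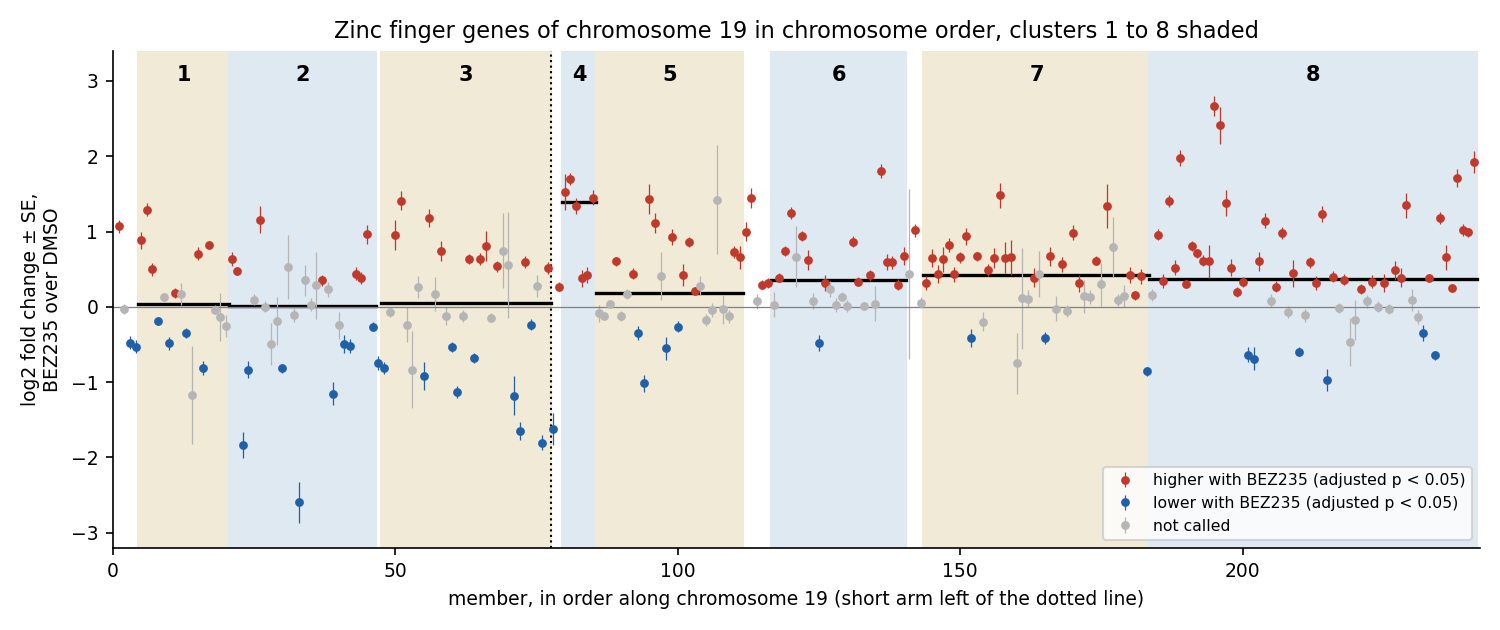
Log2 fold change (BEZ235 over DMSO) with its standard error on the vertical axis for the 241 members in chromosome order on the horizontal axis, with clusters 1 to 8 shaded, a black line at each cluster's median and the dotted line between short and long arm. Red members (124) rose, blue members (39) fell and grey members (78) were not called; blue points lie mostly left of the dotted line and red points dominate to its right.

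Members on the long arm carried the excess of rises. Of 77 members on the short arm, 24 rose (31.2%) and 24 fell (31.2%), and the median log2 fold change was -0.027. Of 164 on the long arm, 100 rose (61.0%) and 15 fell (9.15%), with a median of 0.39. Of all rows tested, 33.1% rose and 33.2% fell. Measured from each member's DMSO mean on the log2 scale, the long-arm median was 0.41, 0.38 and 0.33 in the BEZ235 libraries, against -0.035, 0.023 and 0.009 in the DMSO ones. All 3 BEZ235 libraries lay above all 3 DMSO libraries. The short-arm median was 0.040, 0.018 and -0.039 with BEZ235, against 0.011, 0.003 and -0.009 with DMSO, and these ranges overlapped. The difference between the arms was not tested, because the members of an arm are not replicates of a treatment.

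Gaps of more than 1 Mb between neighbouring zinc finger rows, and the centromere, divided 226 members into 8 clusters of at least 5 members, numbered from the short-arm end, and left 15 scattered. On the short arm, cluster 1 (hg38 chr19:7069444-9786160) held 16 members, of which 6 rose and 4 fell, and the median log2 fold change was 0.043. In cluster 2 (chr19:11483429-12633819) 7 of 26 members rose and 8 fell, with a median of 0.015. Cluster 3 (chr19:19668153-24129968), which reaches towards the centromere, had 10 rises and 9 falls among 30 members and a median of 0.051. The medians of these 3 clusters were -0.053, -0.081 and -0.045 with total-count scaling, and leaving out 1 library also turned their signs.

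On the long arm, all 6 members of cluster 4 (chr19:34541692-34964229) rose, with a median log2 fold change of 1.39. In cluster 5 (chr19:36177618-37817300) 10 of 26 rose (38.5%) and 4 fell (15.4%), with a median of 0.19. Cluster 6 (chr19:43525497-45076587) had 14 rises (58.3%) and 1 fall (4.17%) among 24 members and a median of 0.36. Cluster 7 (chr19:51571283-53580269) had 24 rises (60.0%) and 3 falls (7.5%) among 40 and a median of 0.43. Cluster 8 (chr19:55476332-58489532), at the long-arm end, had 40 rises (69.0%) and 6 falls (10.3%) among 58 and a median of 0.37. Of the 29 members that rose at least 2-fold, 12 lie in cluster 8. Among the scattered members 7 of 15 rose (46.7%) and 4 fell (26.7%), with a median of 0.27.

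**Figure D2:**
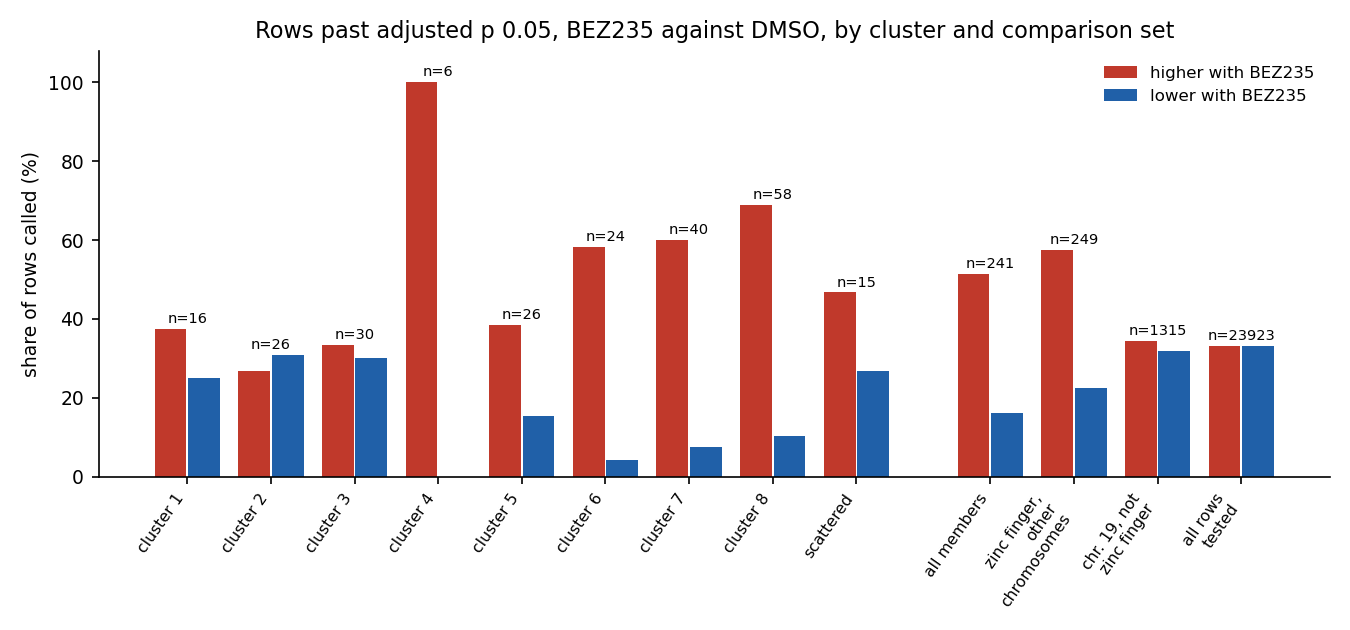
Share of rows past an adjusted p of 0.05 (vertical axis, percent) that were higher (red) or lower (blue) with BEZ235, for each cluster, all members and 3 comparison sets, with the number of rows above the bars. Rises and falls are near each other in clusters 1 to 3, in the other rows of chromosome 19 and in all rows tested, and rises exceed falls in clusters 4 to 8.

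Most of the variation among members lay within clusters. Cluster membership held 13.7% of the variance of log2 fold changes, whose standard deviation was 0.72 over the members and 1.19 over all rows. Of 218 pairs of neighbours within a cluster, 137 had the same sign (62.8%), where the numbers of positive and negative members alone would give 58.1%. In 102 neighbour pairs both members were called, 71 in the same and 31 in opposite directions. Of all called members 76.1% rose, so pairs of the same direction are frequent by these numbers alone. Rows without a zinc finger symbol inside the cluster spans numbered 257, with a median log2 fold change of 0.34. Of these, 105 rose (40.9%, against 33.1% of all rows) and 49 fell (19.1%, against 33.2%). They were uneven by cluster, with 20 rises and 0 falls in cluster 4 and 33 and 7 in cluster 8. In cluster 6, 10 rose and 11 fell. Some of these rows overlap members and may share reads with them.

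**Figure D3:**
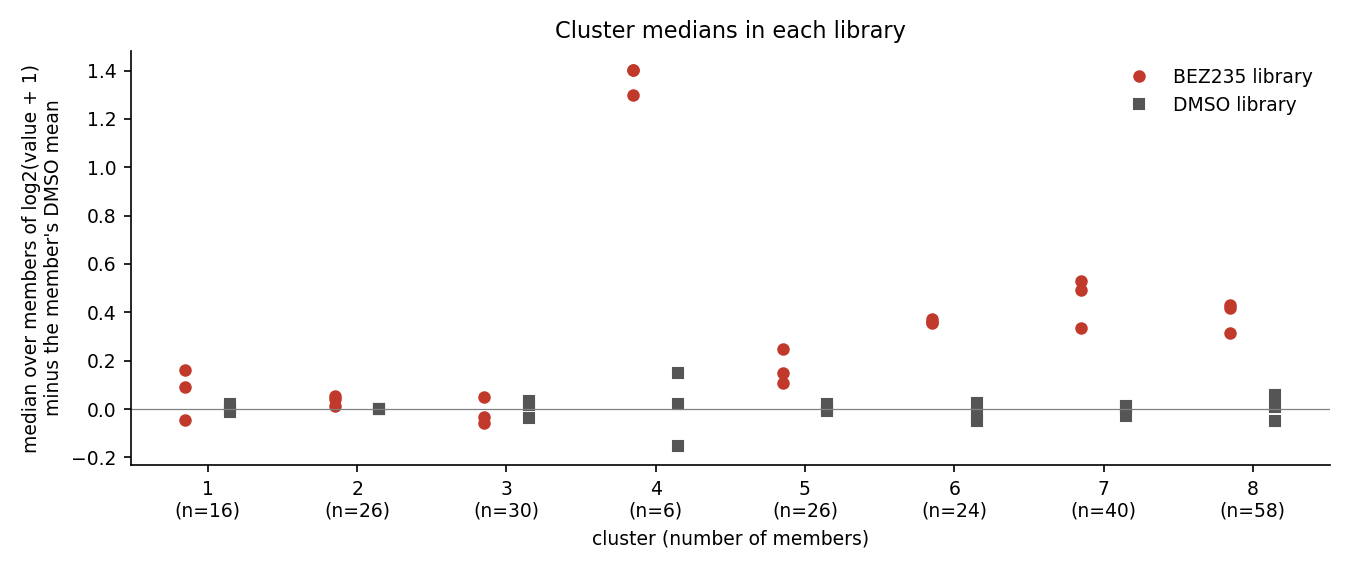
Median over the members of each cluster, in each library, of log2(normalized count + 1) minus the member's DMSO mean (vertical axis), by cluster (horizontal axis), with BEZ235 libraries as red circles and DMSO libraries as grey squares. The BEZ235 libraries lie above the DMSO libraries in cluster 2, by little (0.013 to 0.054), and in clusters 4 to 8, and the groups overlap in clusters 1 and 3.

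The 2 largest rises lay in cluster 8 and the 3 largest falls in clusters 2 and 3. ZNF583 and ZNF667, neighbours in cluster 8 with a KRAB box and a row of fingers, rose most, and ZNF878 in cluster 2 and ZNF726 in cluster 3, also KRAB proteins, had the largest falls among members that encode a protein. A finger of each is printed here as an example of the shared architecture, read from the longest coding transcript in GENCODE v29 and placed on hg38, with the codons of the 2 cysteines and 2 histidines in capitals.
ZNF583 finger (chr19:56423298-56423360, plus strand): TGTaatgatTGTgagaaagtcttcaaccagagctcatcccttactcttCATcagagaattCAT
ZNF667 finger (chr19:56442497-56442559, minus strand): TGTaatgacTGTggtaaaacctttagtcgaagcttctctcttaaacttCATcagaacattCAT
ZNF878 finger (chr19:12044906-12044968, minus strand): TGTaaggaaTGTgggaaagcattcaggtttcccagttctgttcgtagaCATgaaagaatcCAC
ZNF726 finger (chr19:23932723-23932785, plus strand): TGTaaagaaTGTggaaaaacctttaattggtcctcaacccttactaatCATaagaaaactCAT

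Over the 63 bases these fingers were 55.6% (ZNF667 and ZNF878) to 73.0% (ZNF583 and ZNF667) identical.

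ZNF583 (chr19:56404014-56427364, plus strand) had normalized counts of 1267, 1484 and 1207 in BEZ235 libraries against 190, 245 and 188 in DMSO libraries. Each BEZ235 library lay far above each DMSO library. The log2 fold change was 2.67 with a standard error of 0.13 (6.35-fold, adjusted p = 2.6e-08 by limma). An unnamed row that overlaps its 3′ end rose too, with 372, 397 and 375 with BEZ235 against 48.6, 55.8 and 40.1 with DMSO, and the rows may share reads.

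ZNF667 (chr19:56439329-56477374, minus strand) had 220, 256 and 178 in BEZ235 libraries against 47.5, 33.0 and 40.1 in DMSO libraries. The groups did not overlap, and its level per kilobase of exon was the lowest of the 5 members that rose most, at 24.7 with BEZ235 and 4.56 with DMSO. The log2 fold change was 2.41 ± 0.24 (SE, adjusted p = 5.47e-06). The antisense row ZNF667-AS1, which overlaps its start, had a log2 fold change of 0.34 that did not pass (adjusted p = 0.0711).

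ZNF581, a short protein of 197 residues with 4 fingers and no KRAB match, was among the most abundant members per kilobase of exon, at 16628 normalized counts with BEZ235 and 4274 with DMSO. Its values were 28883, 30693 and 27025 in BEZ235 libraries against 8307, 5946 and 8009 in DMSO libraries, a log2 fold change of 1.97 ± 0.11 (SE). ZNF580, a row that lies within it, had 4232, 4418 and 4161 with BEZ235 against 3415, 3427 and 3552 with DMSO, a log2 fold change of 0.30. ZNF446, near the long-arm end, had 1018, 1004 and 918 with BEZ235 against 204, 312 and 269 with DMSO and rose by 1.92 ± 0.15, while SLC27A5, whose row overlaps it, fell by 0.51 on the log2 scale.

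ZNF112 in cluster 6, with 13 fingers, had 3103, 2939 and 2812 in BEZ235 libraries against 886, 742 and 910 in DMSO libraries. It overlaps no tested row, and its log2 fold change was 1.81 ± 0.09 (SE, adjusted p = 2.42e-08). The 12 members of cluster 8 that rose at least 2-fold also included ZNF132 (log2 fold change 1.71), ZNF865 (1.41), ZNF471 (1.38), ZNF606 (1.35), ZNF416 (1.23) and ZNF497 (1.18), which were chosen after their values were seen.

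ZNF878 (chr19:12043805-12052961, minus strand) had 53.3, 31.6 and 47.1 normalized counts in BEZ235 libraries against 341, 202 and 270 in DMSO libraries. Every BEZ235 library lay below every DMSO library, and the member fell by 2.60 on the log2 scale (SE 0.27, adjusted p = 7.2e-06). ZNF433-AS1, a row that overlaps its 3′ end, fell by 2.13 on the log2 scale with more counts, at 429, 364 and 391 with BEZ235 against 1877, 1697 and 1605 with DMSO. Without strand information the reads of the overlapping stretch cannot be assigned to either.

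ZNF726 (chr19:23914886-23944714, plus strand) had 358, 313 and 301 in BEZ235 libraries against 1188, 1122 and 1079 in DMSO libraries and fell by 1.80 on the log2 scale (SE 0.10, adjusted p = 7.27e-08). An unnamed row that lies within it fell by 3.66, with 20.9, 27.6 and 34.4 with BEZ235 against 421, 302 and 347 with DMSO. LOC100505851, which also overlaps it, fell by 1.42, and these rows may share reads with ZNF726. ZNF724, in the same cluster, had 169, 158 and 157 with BEZ235 against 487, 519 and 516 with DMSO and fell by 1.65. Of its transcript sequence, 48.3% recurs in other genes and 3.27% in other members, so part of this value could belong to other genes. The pseudogene ZNF833P in cluster 2 fell by 1.83, but 93.8% of its sequence is shared, and HNRNPA1P10, which lies inside it, rose by 2.03.

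ZNF536, a protein known to restrain neuronal differentiation by retinoic acid, stands alone on the long arm near the centromere. It had 47.5, 49.4 and 60.7 normalized counts in BEZ235 libraries against 171, 166 and 152 in DMSO libraries and fell by 1.62 on the log2 scale (SE 0.22, adjusted p = 5.22e-05). Its level was 6.08 normalized counts per kilobase of exon with BEZ235 and 18.9 with DMSO, where the members' levels in DMSO cells ran from 0.691 (ZNF793) to 13266 (ZNF146). ZNF507, the next member along the chromosome, had 4523, 4550 and 4220 with BEZ235 against 3747, 3716 and 3570 with DMSO and rose by 0.27.

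**Figure D4:**
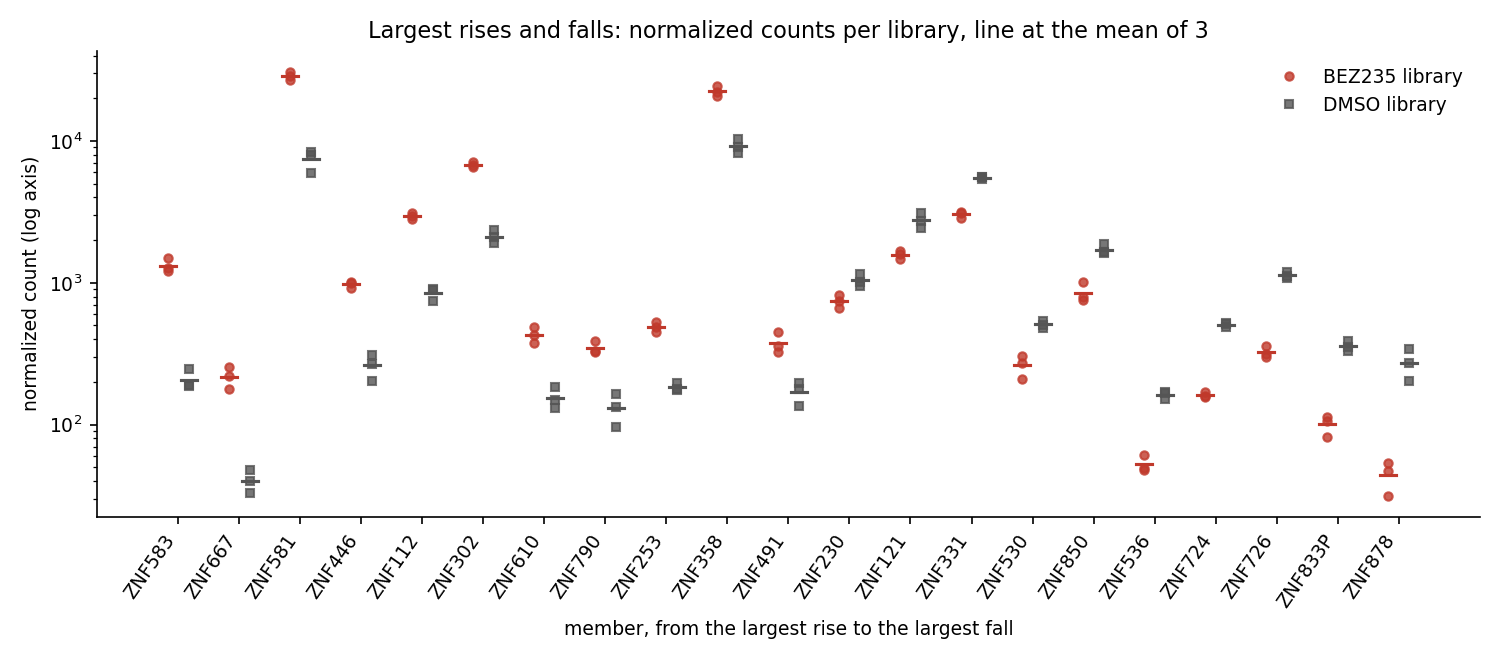
Normalized counts per library (vertical log axis) of the members with the largest rises and falls, overall and in each cluster (horizontal axis, from the largest rise to the largest fall), with BEZ235 libraries as red circles, DMSO libraries as grey squares and a line at each mean of 3. In none of the 21 members do the groups overlap, which the choice of these members required.

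Cluster 4 was a block in which every zinc finger member rose. ZNF302 had 7081, 6821 and 6559 normalized counts in BEZ235 libraries against 1893, 2372 and 2093 in DMSO libraries, a log2 fold change of 1.69 ± 0.08 (SE, adjusted p = 1.79e-08). ZNF181 had 4608, 4528 and 4017 with BEZ235 against 1608, 2100 and 1536 with DMSO (log2 fold change 1.34), and ZNF792 had 1119, 1216 and 1152 with BEZ235 against 377, 441 and 460 with DMSO (1.45). In all 3 of these members the groups were far apart.

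The remaining members of the block changed less or had few counts. ZNF30 had 1390, 1198 and 1516 in BEZ235 libraries against 916, 1112 and 1036 in DMSO libraries (log2 fold change 0.42), and ZNF599 had 1119, 971 and 942 with BEZ235 against 683, 873 and 782 with DMSO (0.38). Their groups did not overlap, but the gaps were narrow. The pseudogene ZNF807P had 188, 145 and 141 with BEZ235 against 64.8, 43.4 and 55.1 with DMSO (1.53), with 30.3% of its sequence shared. When the members that share at least 5% of their sequence are left out, 3 members remain and the median of the cluster is 0.42.

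Other rows in the span of cluster 4 rose as well. Of 23 such rows 20 rose and 0 fell, all 23 having a positive log2 fold change, with a median log2 fold change of 2.04, among them the noncoding LINC01801 at 1.94. Most are short unnamed rows that lie directly beside LINC01801, so they are not separate measurements of the block. Outside the span, WTIP on the centromeric side had a log2 fold change of 0.49, UBA2 of 0.045 and PDCD2L of -0.49, and on the telomeric side GRAMD1A had 0.48, LGI4 -1.33 and FXYD1 -1.80.

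**Figure D5:**
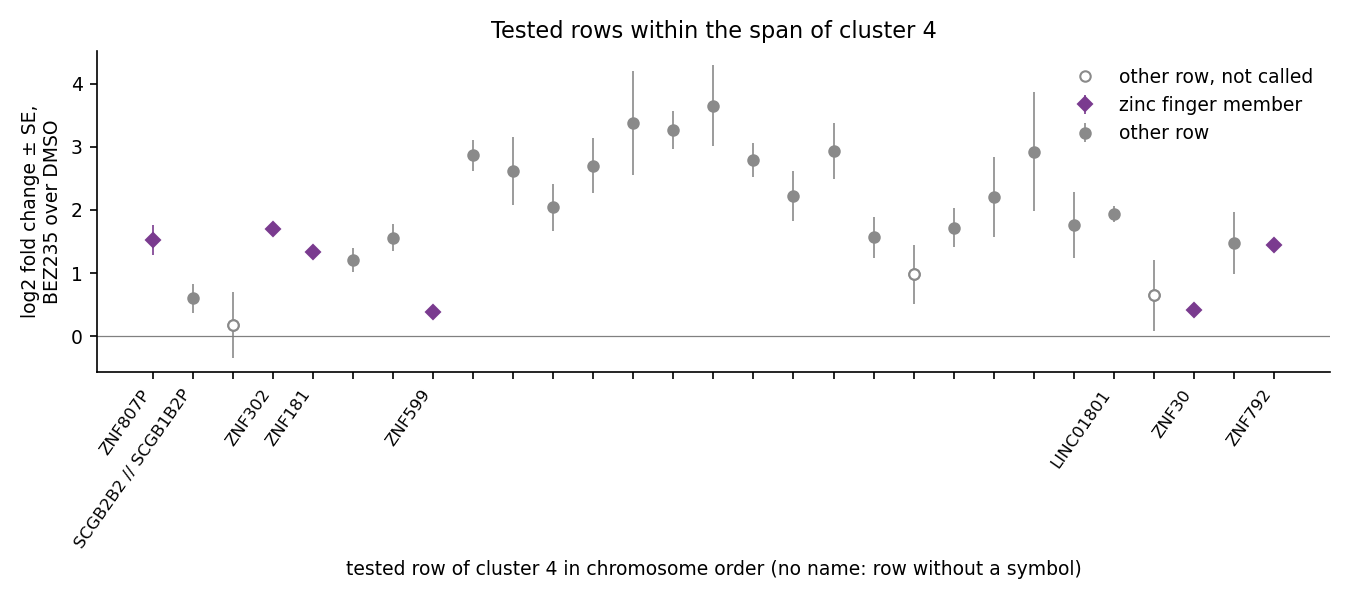
Log2 fold change (BEZ235 over DMSO) with its standard error (vertical axis) for the 29 tested rows in the span of cluster 4 in chromosome order (horizontal axis), with zinc finger members as purple diamonds, other called rows as filled circles and rows not called as open circles. All 6 members lie above 0, and the unnamed rows beside LINC01801 lie mostly above the members.

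Within most other clusters, members went both ways. In cluster 1, ZNF358 had 22245, 24230 and 20883 normalized counts in BEZ235 libraries against 8215, 10310 and 9111 in DMSO libraries (log2 fold change 1.29), while ZNF121 had 1675, 1468 and 1589 with BEZ235 against 3119, 2453 and 2738 with DMSO (-0.81). In cluster 2, ZNF491 had 361, 448 and 326 with BEZ235 against 197, 177 and 136 with DMSO (1.16). In cluster 3, ZNF253 had 484, 529 and 451 with BEZ235 against 177, 198 and 174 with DMSO (1.41), while ZNF726 in the same cluster fell.

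In cluster 5, ZNF790 had 389, 333 and 323 in BEZ235 libraries against 96.1, 164 and 133 in DMSO libraries (log2 fold change 1.43), and ZNF850, a protein of 29 fingers, had 1005, 792 and 756 with BEZ235 against 1885, 1619 and 1639 with DMSO (-1.02). In cluster 6 the only fall was that of ZNF230, with 741, 821 and 669 with BEZ235 against 1149, 955 and 1013 with DMSO (-0.48). In cluster 7, ZNF610 had 430, 485 and 374 with BEZ235 against 148, 183 and 131 with DMSO (1.48). The imprinted gene ZNF331, at the far end of cluster 7, had 3148, 3102 and 2860 with BEZ235 against 5547, 5356 and 5604 with DMSO (-0.86), and in cluster 8 ZNF530 had 211, 270 and 303 with BEZ235 against 504, 539 and 482 with DMSO (-0.97).

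Members with a known role, including those that did not pass, are described next. Among repressors of retrotransposons, ZNF91, which silences SVA elements through a row of 31 fingers, had 1521, 1501 and 1700 normalized counts in BEZ235 libraries against 1048, 1009 and 1064 in DMSO libraries and rose by 0.60 on the log2 scale (SE 0.08, adjusted p = 4.82e-05). ZNF93, which silences LINE-1 elements, had 154, 212 and 222 with BEZ235 against 161, 282 and 261 with DMSO, overlapping ranges with a log2 fold change of -0.23 (adjusted p = 0.391). ZNF43, a relative of ZNF91, had 2392, 2223 and 2354 with BEZ235 against 1628, 1678 and 1489 with DMSO and rose by 0.54.

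ZNF274, which brings SETDB1 to the 3′ ends of zinc finger genes, had 574, 676 and 639 normalized counts in BEZ235 libraries against 846, 817 and 740 in DMSO libraries and fell by 0.35 on the log2 scale (SE 0.10, adjusted p = 0.0103). ZNF473, which takes part in the 3′ processing of histone mRNA, had 5487, 5463 and 4685 with BEZ235 against 4623, 5167 and 5236 with DMSO, and its log2 fold change of 0.056 did not pass (adjusted p = 0.539). ZNF350, a partner of BRCA1, had 1791, 1941 and 1703 with BEZ235 against 1146, 1023 and 918 with DMSO and rose by 0.82. ZNF675, which binds the signalling adaptor TRAF6, had 2022, 2043 and 2010 with BEZ235 against 2585, 2328 and 2250 with DMSO and fell by 0.23.

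ZNF146, which consists almost only of fingers, had the highest level per kilobase of exon of all members in the DMSO cells, at 12202 with BEZ235 and 13266 with DMSO. Its counts were 52534, 51195 and 48040 in BEZ235 libraries against 55401, 54737 and 54870 in DMSO libraries, and the log2 fold change of -0.12 did not pass (adjusted p = 0.0599). It passed with total-count scaling (-0.22, adjusted p = 0.00265) and by DESeq2 (adjusted p = 0.0366). ZNF260, another finger-only protein, had 7252, 6911 and 6414 with BEZ235 against 4425, 4769 and 4334 with DMSO and rose by 0.60. ZNF224, a repressor of the aldolase A gene, had 5211, 4740 and 5023 with BEZ235 against 4429, 4379 and 4831 with DMSO, and its log2 fold change of 0.14 did not pass (adjusted p = 0.0774), but did with quantile normalization (0.19, adjusted p = 0.0236).

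Of the other members followed, ZNF175 (log2 fold change 0.32), ZNF180 (0.29) and ZNF653 (0.63) rose and ZNF57 fell by 0.48. ZNF382, a KRAB repressor, had a log2 fold change of 0.17 that did not pass (adjusted p = 0.0516). ZNF175 and ZNF180 no longer passed when libraries were scaled to the same total count, nor did ZNF175 without BEZ235 replicate 1 (log2 fold change 0.21). By contrast, ZNF93 passed without DMSO replicate 1 (-0.48). ZNF382 passed without BEZ235 replicate 3 (0.22, adjusted p = 0.0235), with quantile normalization (adjusted p = 0.0127), with a filter at 50 (adjusted p = 0.0466) and by edgeR (adjusted p = 0.0376).

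Of the 78 members that did not pass, 6 had an unadjusted p under 0.05. Of the 16 members with a mean under 100, 0 passed by limma and 0 had an unadjusted p under 0.05, and edgeR and DESeq2 on the recovered reads called 0 of them as well. Standard errors of the log2 fold change ran up to 1.13 over the members, with a median of 0.097. Among uncalled members with a mean of at least 100, the largest log2 fold change in size was 0.67. At a mean under 100 a large change can pass, as did that of ZBTB32, another zinc finger gene of the chromosome that is no member. ZBTB32 had 69.5 with BEZ235 and 18.1 with DMSO on average, a log2 fold change of 1.75. A member that did not pass is not shown to be unchanged.

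The partners through which KRAB proteins act changed in both directions. Of 40 tested rows of a list of corepressors and chromatin factors, 23 rose (57.5%, against 33.1% of all rows) and 14 fell (35.0%, against 33.2%). The median log2 fold change was 0.31. The median normalized count was 9899 in these rows and 712 in all rows tested. TRIM28, the corepressor itself, had 42781, 45816 and 40623 normalized counts in BEZ235 libraries against 35981, 37415 and 39933 in DMSO libraries and a log2 fold change of 0.19 (adjusted p = 0.0185), which did not pass with total-count scaling (adjusted p = 0.233). SETDB1, which methylates lysine 9 of histone H3, had 5350, 5330 and 4862 with BEZ235 against 2524, 2368 and 2503 with DMSO and rose by 1.07 on the log2 scale.

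Of the HP1 proteins that bind this mark, CBX1 and CBX3 fell and CBX5 did not pass. CBX1 had 39856, 39756 and 35781 in BEZ235 libraries against 67864, 72027 and 70724 in DMSO libraries and fell by 0.87, CBX3 fell by 0.15 but did not pass with quantile normalization (adjusted p = 0.281), and CBX5 had a log2 fold change of 0.044 that did not pass (adjusted p = 0.528). CBX5 was negative with total-count scaling (-0.052) and passed as a rise with quantile normalization (0.13, adjusted p = 0.027). The HUSH complex subunits rose, with log2 fold changes of 0.64 for MPHOSPH8, 0.82 for TASOR and 0.84 for PPHLN1, TASOR and PPHLN1 being chosen after their values were seen, and the HUSH partner MORC2 rose by 0.20, which did not pass with total-count scaling (adjusted p = 0.261).

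ATRX and DAXX, which deposit histone H3.3 in heterochromatin, rose by 0.68 and 0.32 on the log2 scale. The largest rise in the list was that of CHD3, a remodelling ATPase of the NuRD complex, with 18715, 20080 and 17469 with BEZ235 against 7542, 7650 and 7663 with DMSO (log2 fold change 1.30). The largest fall was that of DNMT1, the maintenance DNA methyltransferase, with 15907, 15796 and 15251 in BEZ235 libraries against 32779, 37949 and 37316 in DMSO libraries (-1.20). Among 14 tested rows of chromosome 19 with another zinc finger family name, 6 rose (42.9%) and 1 fell (7.14%), with a median of 0.12. Of all rows tested, 33.1% rose and 33.2% fell. The fall was that of ZFP36 (-0.72), an RNA-binding protein whose fingers are of another type.

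The members' proteins, translated from the longest coding transcript of each of 235 members, had a median of 593 residues and 12 fingers and up to 36 fingers. At the lower end, ZNF738, of 137 residues, had 0 fingers by the pattern and ZNF428 had 1. A KRAB A box by sequence pattern was found in 170 of the 235 members. Of these, 79 rose (46.5%) and 30 fell (17.6%), and the median log2 fold change was 0.27. Of 65 without a match, 43 rose (66.2%) and 8 fell (12.3%), with a median of 0.42. Of all rows tested, 33.1% rose and 33.2% fell. In cluster 6, where 14 of 24 members rose and 1 fell, the pattern matched 8.33% of members. The set without a match therefore holds most of that cluster. A missing match says only that these letters are not there. By finger number, 36 rose and 8 fell of 62 members with up to 9 fingers, 46 rose and 20 fell of 100 with 10 to 14, and 40 rose and 10 fell of 73 with 15 or more, with medians of 0.37, 0.22 and 0.38.

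Promoters, taken as the 250 bases before and 50 after the start in RefSeq (GRCh38.p14), were matched for 209 members. The ETS core CCGGAAG, searched on both strands, was found in 93 (44.5%), against 10.3% of 35116 promoters of all genes, and the GC box GGGCGG in 141 (67.5%), against 45.0%. The E-box CACGTG was found in 8 (3.83%, against 7.26%) and CAAGATGGC, the core of the YY1 motif, in 3 (1.44%, against 1.42%). No motif contains another, and median GC content was 60.0% in member promoters and 58.7% in all promoters. The median number of CpG dinucleotides was 20 in member promoters and 14 in all promoters, and every motif searched except CAAGATGGC holds a CpG. The promoters of all genes were not filtered by expression or gene type, whereas members passed the filter on values and mostly encode proteins. The part of these differences and of CpG number in the motif counts was not tested.

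Of the members by ETS core, 53 rose (57.0%) and 18 fell (19.4%) of 93 with it (median log2 fold change 0.32). Of 116 without it, 55 rose (47.4%) and 19 fell (16.4%), with a median of 0.28. Of all rows tested, 33.1% rose and 33.2% fell. By GC box, 69 rose (48.9%) and 27 fell (19.1%) of 141 with it, and 39 rose (57.4%) and 10 fell (14.7%) of 68 without it. A match describes letters and not binding. The promoters of the 4 members whose fingers are printed are given here, with matches to CCGGAAG and GGGCGG on either strand in capitals. These members had the largest rises, or the largest falls among members that encode a protein.
ZNF583 promoter (chr19:56403764-56404063, plus strand): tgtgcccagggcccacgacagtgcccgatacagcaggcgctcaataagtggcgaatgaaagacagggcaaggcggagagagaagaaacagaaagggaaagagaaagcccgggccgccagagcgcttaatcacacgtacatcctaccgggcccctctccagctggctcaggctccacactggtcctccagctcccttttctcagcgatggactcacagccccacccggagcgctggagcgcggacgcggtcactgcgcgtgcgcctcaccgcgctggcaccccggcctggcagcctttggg
ZNF667 promoter (chr19:56477296-56477595, minus strand): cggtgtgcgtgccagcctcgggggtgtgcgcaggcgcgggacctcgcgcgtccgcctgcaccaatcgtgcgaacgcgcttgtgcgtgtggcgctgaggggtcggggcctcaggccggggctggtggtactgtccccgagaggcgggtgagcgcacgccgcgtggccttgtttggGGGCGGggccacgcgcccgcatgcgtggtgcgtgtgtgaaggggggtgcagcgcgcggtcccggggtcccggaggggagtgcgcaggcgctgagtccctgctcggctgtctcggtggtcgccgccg
ZNF878 promoter (chr19:12052912-12053211, minus strand): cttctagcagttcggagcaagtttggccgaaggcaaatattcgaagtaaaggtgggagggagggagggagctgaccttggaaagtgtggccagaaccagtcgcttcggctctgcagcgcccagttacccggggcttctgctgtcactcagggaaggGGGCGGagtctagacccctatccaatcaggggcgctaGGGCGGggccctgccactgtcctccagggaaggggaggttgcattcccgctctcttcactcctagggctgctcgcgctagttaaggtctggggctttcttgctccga
ZNF726 promoter (chr19:23914636-23914935, plus strand): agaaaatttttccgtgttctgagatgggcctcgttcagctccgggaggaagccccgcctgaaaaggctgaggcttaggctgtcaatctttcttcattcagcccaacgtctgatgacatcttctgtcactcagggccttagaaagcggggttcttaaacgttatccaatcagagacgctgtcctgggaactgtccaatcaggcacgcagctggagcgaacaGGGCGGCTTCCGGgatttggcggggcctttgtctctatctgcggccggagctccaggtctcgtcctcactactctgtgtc

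ZNF726, which fell, held both motifs next to each other, ZNF878 and ZNF667 held the GC box without the ETS core, and ZNF583, which rose most, held none of these motifs.

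Of the 241 members, 84 overlap another tested row and 35 of these another member, and a median of 2.51% of a member's 50-base stretches recur in another gene. Of the 157 members that overlap no tested row, 80 rose (51.0%) and 30 fell (19.1%), and of the 154 with under 5% shared stretches, 81 rose (52.6%) and 26 fell (16.9%). More than 50% of the sequence was shared in 9 members, led by ZNF833P, and their values are uncertain. Among the named members the shared part was 26.1% for ZNF446, 18.6% for ZNF878, 18.4% for both ZNF358 and ZNF581, 12.4% for ZNF653 and 10.4% for ZNF112. The part shared with other members was 26.1% for ZNF446, 18.4% for ZNF581, 1.93% for ZNF878, 0.1% for ZNF112 and 0% for ZNF358 and ZNF653. ZNF790 overlaps ZNF345 and ZNF790-AS1, which rose by 1.12 and 0.42 on the log2 scale.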

How the data were processed

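RNA of 3 BEZ235-treated and 3 DMSO-treated TC-71 samples was sequenced. The authors deposited normalized counts per gene, a signal that is never negative, per the file headers with FASTDB genes and hg38 coordinates. FastQC, Picard, SAMtools, STAR 2.4.0, DESeq and hg38 were used, per the submitters' processing notes, which do not state their roles; how reads were counted, and whether by strand, was not given in the sources used here. Columns named as controls were matched to DMSO samples by number, these being the only control samples.

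Within each column 1 read has a fixed worth, and division by that worth came out whole for 100% of values (tolerance 0.01 normalized counts). Libraries came to 184790722 to 233767211 such reads. A count of 0 allows up to 3 reads, or 2.50 to 3.47 normalized counts, which covers counting error only.

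The test was limma 3.58.1 (R 4.3.3) with a mean-variance trend on log2(normalized count + 1), two-sided, with group as the only term, fitted to 23923 rows with a value of at least 10 in at least 3 libraries, with Benjamini-Hochberg adjustment over all of them and a threshold of 0.05. Fold changes are on this scale, which understates changes of low rows. On the recovered reads, edgeR 4.0.16 (quasi-likelihood) called 15744 rows and DESeq2 1.42.0 called 15706, against 15863 by limma. With 3 against 3 an exact permutation test cannot give a p below 0.1, so none was used. The test was also run on simulated counts with known changes, drawn from the means and dispersions of these data. It called 68.7% of 1.5-fold, 74.6% of 2-fold and 89.4% of 4-fold changes, and 0.0473% of unchanged rows. Only a small part of the 23467 simulated rows was changed, whereas 66.3% of the real rows passed. The adjusted threshold depends on that share, so these rates do not give the sensitivity or the false call rate in these data.

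Named members are the 5 largest rises and falls among called members whose groups do not overlap and whose mean is at least 100 in the higher group, the largest of each direction per cluster by the same conditions, and a list of members with known roles. Members, lists and clusters were chosen with earlier results of these data known. Fingers (C, 2 to 4 residues, C, 12 residues, H, 3 to 5 residues, H) and KRAB boxes were counted in translated GENCODE 29 transcripts, since no RefSeq protein table was used. The KRAB pattern first written matched 104 proteins and was widened after the data were seen. Exon lengths and shared 50-base stretches come from GENCODE 29, promoters from RefSeq GRCh38.p14. Other scalings, pseudocounts, filters, cluster gaps, the replicate block, leaving out libraries and both count tests were alternatives; subsets of members by mean and by shared sequence were added after the data were seen. A row beside cluster 4 is not reported here.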

Additional observations from a re-analysis of the deposited data

How the results depend on the processing

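Directions were stable for most results, and the scaling moved the medians. The counts of members higher and lower (124 and 39) came to 103 and 46 with total-count scaling and 131 and 39 with quantile normalization. Leaving out 1 library gave 113 to 124 higher, 39 to 42 lower, 29 to 33 higher by at least 2-fold and 7 to 10 lower by at least 2-fold. By construction, fewer members count in subsets: 80 higher and 16 at least 2-fold higher among members that overlap no tested row, and 81, 18 and, at least 2-fold lower, 3 among members with under 5% shared sequence. The 37 named members gave 629 results, 1 per member and alternative setting. Of these, 616 left direction and call as they were, and 30 members were so under every setting. The reversals were those of ZNF473, which did not pass, at -0.041 with total-count scaling and, leaving out 1 library, -0.001 (without DMSO replicate 1) to 0.131.

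Medians of log2 fold change moved beyond the spread of their libraries as follows, and the cause was not tested. With total-count scaling they were 0.219 over all members, -0.053, -0.081, -0.045, 0.092, 0.261, 0.332 and 0.275 for clusters 1, 2, 3, 5, 6, 7 and 8, 0.269 for zinc finger rows of other chromosomes and -0.108 for other named rows of chromosome 19. With quantile normalization they were 0.365 over all members, 0.068 for cluster 2, 0.412 for cluster 6, 0.414 for zinc finger rows of other chromosomes and 0.031 for other named rows of chromosome 19. The other named rows of chromosome 19, those with a symbol, numbered 1024, with a median of -0.012 in the main test. With a filter at 50, cluster 1 had 0.124 and cluster 3 had -0.068. Among members that overlap no tested row, clusters 1, 2, 5 and 6 had 0.124, -0.255, 0.418 and 0.385. Among members with a mean of at least 100, clusters 1, 3 and 6 had 0.147, -0.068 and 0.385. Among members with under 5% shared sequence, clusters 1, 2, 3, 4, 6, 7 and 8 had -0.112, 0.093, -0.131, 0.419, 0.312, 0.634 and 0.486. A gap of 500000 bases gave cluster 1 a median of -0.085 and cluster 6 of 0.331; a gap of 2000000 bases joined clusters 4 and 5, with 0.396, and gave cluster 6 a median of 0.331. Leaving out 1 library gave -0.006 to 0.158, -0.049 to 0.050, -0.031 to 0.103, 0.128 to 0.228, 0.352 to 0.385 and 0.385 to 0.539 for clusters 1, 2, 3, 5, 6 and 7. The medians of clusters 1 to 3 therefore have no settled sign, and those of clusters 4 to 8 were positive under every alternative run.

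The replicate numbers are shared between groups, but same-numbered samples did not deviate together (r of -0.038, 0.023 and 0.044). With the replicate number as a block, 124 members were higher and 39 lower, with a median of 0.315, and 15917 of all rows were called, against 15863 without the block. Of the 16 members with a mean under 100, 0 passed with limma, edgeR or DESeq2, and 0 had an unadjusted p under 0.05. Their standard errors by limma were 0.232 to 1.13, against a median of 0.097 over all members.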
